A study of Mus musculus with 9 samples.

Results

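The clustered histone genes of mouse are the 68 entries of the deposited gene table, of 23358 entries in all, whose symbol starts with Hist1h, Hist2h, Hist3h or Hist4h. They were chosen by symbol alone and selected on no measured value, although the family was picked for description with earlier results of these data known. Of the 68 members, 54 lie in the large cluster on chromosome 13 (Hist1), 10 on chromosome 3 (Hist2), 3 on chromosome 11 (Hist3) and 1 on chromosome 6 (Hist4). By symbol, 6 members are genes of the linker histone H1, and of the core histones 18 are H2A, 19 H2B, 12 H3 and 13 H4 genes.

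RNA was sequenced from C57BL/6 marrow stromal cells (MSC) of adult mice, used between passages 4 and 10, in 3 groups of 3 libraries that the series text calls biological replicates. The siBcat group received a siRNA against β-catenin (Ctnnb1). The GSK126 group received a non-targeting siRNA and 5 µM GSK126, a small-molecule inhibitor of the H3K27 methyltransferase Ezh2. The siCTL group received the non-targeting siRNA alone. In all 3 groups the agents were added 1 day after plating, the medium was osteogenic (ascorbic acid and β-glycerophosphate), and cells were lysed on day 4. The treatment label of the siBcat libraries also lists 5 µM GSK126, whereas their titles, source names and the series text name no inhibitor for them, so the groups follow the titles. Whether the libraries of a group came from separate animals is not stated. Each p-value sets a group difference against the spread between these libraries, and not between animals.

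Replication-dependent histone genes supply the core and linker histones that package newly made DNA, and cells transcribe them mainly in S phase. Their mRNAs usually carry no intron and no poly(A) tail. The 3′ end forms just past a short hairpin, the histone stem-loop, which the stem-loop binding protein Slbp holds while the U7 small nuclear ribonucleoprotein directs the cut. Some clustered genes also have a poly(A) signal downstream of the hairpin and can give longer, polyadenylated transcripts, a form known from cells that have left the cell cycle or are differentiating. A library kit for mRNA, as named in the labels, would be expected to sample mainly that form, although no label spells out a poly(A) selection.

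The hairpin was present in the annotated transcript of most members, including most of those with many counts. The sequences below come from GENCODE transcripts on GRCm38 and show the members with the highest levels or the largest changes that had a hairpin. They are given as DNA, 5′ to 3′ on the gene's strand, with the 16 bases of the hairpin in capitals and 5 flanking bases on each side.
Hist1h1c: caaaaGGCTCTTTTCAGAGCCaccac
Hist3h2a: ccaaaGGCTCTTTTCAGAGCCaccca
Hist2h3c1: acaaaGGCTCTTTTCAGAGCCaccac
Hist1h1d: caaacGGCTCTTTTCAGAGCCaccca
Hist1h1e: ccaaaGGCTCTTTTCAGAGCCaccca
Hist1h2ac: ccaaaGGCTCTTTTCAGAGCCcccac
Hist1h4i: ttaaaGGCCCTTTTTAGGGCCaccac
Hist1h4h: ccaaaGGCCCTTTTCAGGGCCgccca
The capitals lie at chr13:23739512-23739527 on the plus strand for Hist1h1c, at chr11:58955172-58955187 on the plus strand for Hist3h2a, and at chr3:96247327-96247342 on the plus strand for Hist2h3c1. They lie at chr13:23555787-23555802 on the plus strand for Hist1h1d, at chr13:23621782-23621797 on the minus strand for Hist1h1e, and at chr13:23683477-23683492 on the minus strand for Hist1h2ac. For the H4 genes they lie at chr13:22040966-22040981 on the minus strand for Hist1h4i and at chr13:23531458-23531473 on the plus strand for Hist1h4h.

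A hairpin of 6 paired bases and a 4-base loop was found within 200 bases of the stop codon in 44 of the 68 members, 21 to 58 bases past it, and none of the 44 had an unpaired position in the stem. The 44 hairpins had 6 different sequences. The form shown for Hist1h1c was shared by 26 members that encode H1, H2A, H2B or H3. The form shown for Hist1h4h was shared by 7 members, and the form shown for Hist1h4i by 2, all of them H4 genes. No hairpin was found in 8 members with annotated 3′ sequence, among them Hist1h2bc and Hist2h2be, both H2B genes with a poly(A) signal in their annotated 3′ sequence. The signal searched for was AATAAA, with the common variant form ATTAAA also accepted. The other 16 members have fewer than 16 annotated bases past the stop codon and could not be assessed. No match says only that the hairpin is not in the annotated transcript.

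Counts were found for 58 of the 68 members in at least 1 of the 9 libraries, and 10 members had none. The 10 were Hist1h2aa, Hist1h2ao, Hist1h2ap, Hist1h2ba, Hist1h2bk, Hist1h2bq, Hist1h2br, Hist1h4n, Hist2h2aa2 and Hist3h2ba. For 6 of the 10, the span of the table entry overlaps another member, and how the authors' counting assigned reads there is not known. A value of 0 in a library allows a level of up to 0.107 to 0.142 counts per 1000000 counts (CPM), depending on its depth (3 fragments, counting error only). All counts in the table are even, as if each fragment had been counted as 2, so a fragment is taken as 2 counts here. Only 18 members had counts in all 9 libraries, 24 reached 10 counts in at least 1 library, and 4 reached 100 counts in every library. Those 4 were Hist1h1c (H1), Hist1h2bc (H2B), Hist3h2a (H2A) and Hist2h3c1 (H3).

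A filter on low counts passed 16 members, and 52 were not tested. By type, the 16 comprised 4 of 6 H1, 3 of 18 H2A, 4 of 19 H2B, 2 of 12 H3 and 3 of 13 H4 members. At the edge of the filter, Hist4h4 with 106 summed counts and Hist1h4h with 62 passed, and Hist2h4 with 72 and Hist1h4m with 62 did not. Hist1h4h passed through the siBcat libraries alone, where all 3 lay over the filter's level and none of the GSK126 or siCTL libraries did, so its difference was built into its passing. The other 15 had libraries over that level in every group.

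The members with many counts were mostly those whose entry in the table reaches far past the coding sequence. Of 11 members with at least 300 exonic bases beyond the coding sequence and a span clear of other members, all 11 had counts, 9 passed the filter, and the median was 712 counts summed over the 9 libraries. Of 46 members with fewer such bases, 42 had counts, 4 passed the filter, and the median was 14. For 29 of those 46 the entry is the coding sequence alone, and 1 of them passed, Hist1h1b. A longer entry can collect reads that a shorter one cannot, so these counts do not compare transcript levels between genes, and the part that entry length has in the counts was not tested.

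**Figure D1:**
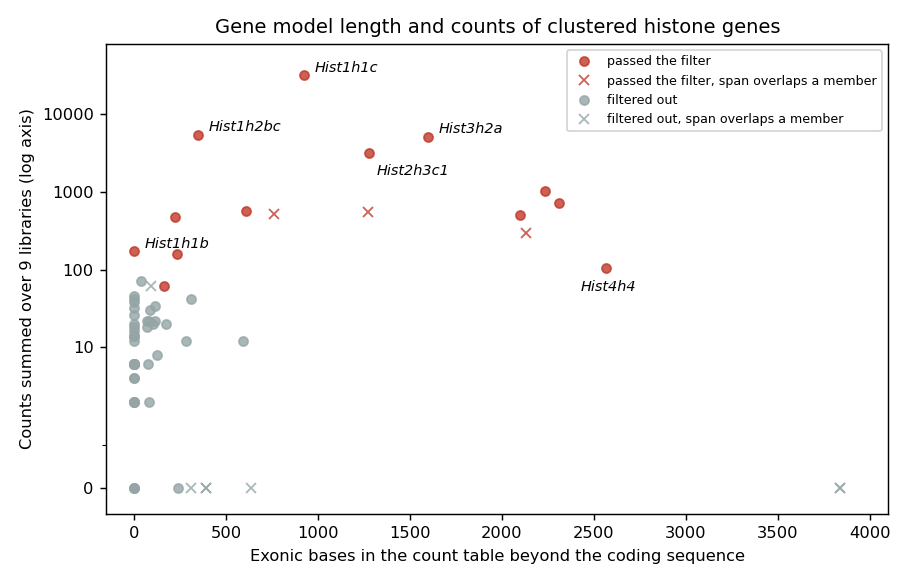
Each point is 1 of the 67 members with an annotated coding sequence, placed by the exonic bases of its table entry beyond the coding sequence and by its counts summed over the 9 libraries (log axis, with 0 at the foot); crosses mark spans that overlap another member. Members that passed the filter lie mostly to the right, and of the 29 entries with no extra bases and a clear span only Hist1h1b passed.

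Among members that passed, several entries run well past the end that RefSeq gives to the gene. The entry ran past it by 836 bases for Hist1h1c, 1482 bases for Hist3h2a, 1161 bases for Hist2h3c1, 2201 bases for Hist1h1d, 1149 bases for Hist1h1e, 2006 bases for Hist1h2ac and 2440 bases for Hist4h4. The deposited table gives no position within a gene, so reads in the coding part and reads past the hairpin could not be separated. A poly(A) signal lay past the stop codon in 22 of the 68 members. A match anywhere in the annotated 3′ sequence was accepted, so members with longer 3′ sequence had more room for one. Of those 22, 11 passed the filter. The counts of the 22 made up 48854 of the 51354 counts over all members, and Hist1h1c alone gave 31716. Of the 46 members without one, which include those with little or no annotated 3′ sequence, 5 passed.

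Sequence shared with other annotated genes limits several values. Such a gene can be a copy elsewhere or a gene annotated over the same bases, so the shares below are not of copies alone. Every 50-base window of Hist2h3c1 also occurs in another annotated gene, and so do 89.39% of the windows of Hist2h2aa1 and 63.54% of those of Hist2h3c2. For Hist1h1c the share was 8.54%, for Hist1h1d 2.25%, for Hist1h2bc 30.08% and for Hist3h2a 31.47%. The exons of Hist1h1e and Hist1h2be overlap on the same strand in the annotation, so reads there cannot be assigned to either with certainty. On the same strand, an annotated exon of Trim17 overlaps Hist3h2a, Gm24991 overlaps Hist1h2ac, and Gm20634 overlaps both Hist2h2aa1 and Hist2h3c1. Genes annotated on the opposite strand also overlap exons of Hist3h2a, Hist1h2ac and Hist2h2aa1, and whether the counting used strand is not given in the sources used here. Values for Hist3h2a, Hist1h2ac, Hist2h3c1, Hist2h3c2, Hist2h2aa1, Hist1h1e and Hist1h2be are therefore uncertain as to the gene. Shared windows put the same limit on part of the sequence of Hist1h2bc, Hist1h2bg (49.74%), Hist1h4h (45.84%) and Hist1h4i (28.91%).

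Library totals ran between 42324200 and 55898774 counts, with no odd count in any library. The members took 0.0131 ± 0.000235% of the counts in siBcat libraries, 0.0135 ± 0.00139% in GSK126 libraries and 0.00954 ± 0.000145% in siCTL libraries (SD, n = 3 each). Ctnnb1, the targeted gene, was at 19.13 to 19.33 CPM in siBcat libraries, 905.9 to 949.7 CPM in GSK126 libraries and 854.4 to 878.9 CPM in siCTL libraries. The 10 stromal markers looked at summed to 22310 to 24420 CPM in siBcat, 26920 to 29460 CPM in GSK126 and 23750 to 28580 CPM in siCTL libraries. Most of each sum was Col1a1 and Col1a2, so it says little of the other markers. Pdgfrb had 28880 to 43488 counts in a library, Eng 278 to 526 and Nt5e 30 to 74. Thy1, with 0 counts in every library, alone among the 10 did not pass the filter. GSK126 replicate 3 stood apart by gene length: relative to the group's mean on the log2 scale, the shortest 10% of genes had a median of 0.1728 and the longest 10% a median of -0.2291. The members tested had a median of 0.1276 in the same library, and the GSK126 values that it moved most are given with and without it.

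Hist1h1c dominated the family. Summed over the 68 members, levels were 135.4, 130.7 and 136.3 CPM in siBcat libraries, 127.7, 124.3 and 144.2 CPM in GSK126 libraries, and 96.74, 94.32 and 95.06 CPM in siCTL libraries. Every siBcat and every GSK126 library was above every siCTL library, and the siBcat and GSK126 ranges overlapped. Hist1h1c made up 51.92 to 55.43% of the member counts in siBcat libraries, 69.18 to 70.61% in GSK126 libraries and 60.49 to 61.65% in siCTL libraries, with no overlap between groups. Without Hist1h1c, the other 67 members summed to 62.57 ± 2.12 CPM in siBcat, 39.84 ± 3.36 CPM in GSK126 and 37.02 ± 0.579 CPM in siCTL libraries (SD, n = 3 each). These sums were not tested, since an exact two-sided permutation test of 3 libraries against 3 cannot go below 0.1.

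**Figure D2:**
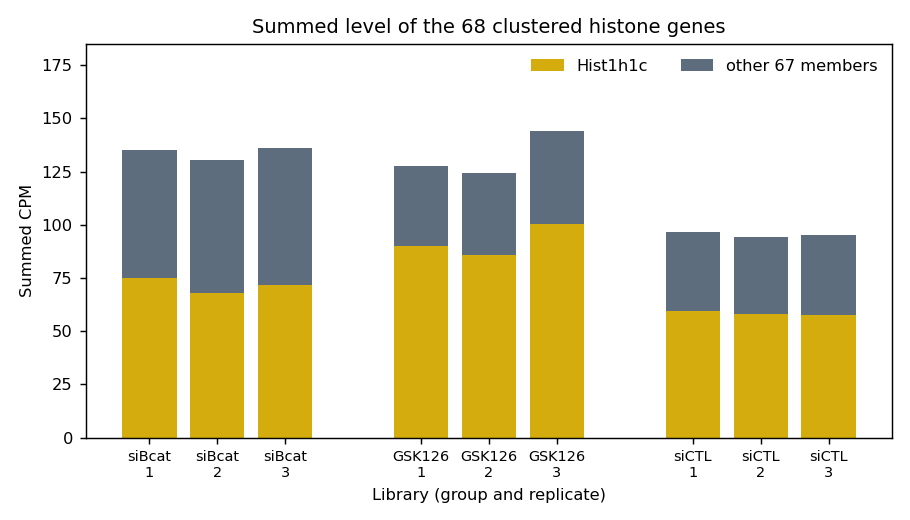
Stacked bars give the summed CPM of the 68 members in each library, with Hist1h1c below and the other 67 members above. GSK126 libraries have the tallest Hist1h1c bars (86 to 100.5 CPM) and siBcat libraries the tallest remainder (60.34 to 64.55 CPM).

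Per kilobase of table entry and averaged over the 9 libraries, Hist1h1c was highest at 47.43 CPM per kb, followed by Hist1h2bc at 17.59, Hist3h2a at 6.115, Hist2h3c1 at 4.105, Hist1h4i at 2.12, Hist2h3c2 at 1.304, Hist2h2aa1 at 1.067 and Hist2h2be at 0.9325 CPM per kb. For comparison on the same scale, H1f0, the replacement linker histone made outside S phase from polyadenylated mRNA, was at 82.92 CPM per kb in siBcat, 74.97 in GSK126 and 69.33 in siCTL libraries. Hist1h1c was at 45.83, 59.08 and 37.38 CPM per kb in those groups. H3f3b, which encodes the replacement histone H3.3, was at 145.8, 212.0 and 162.9 CPM per kb in the same order. Hist2h3c1, the highest of the clustered H3 genes, was at 4.483 CPM per kb in siBcat libraries. These are levels as counted in this kit and say nothing of transcripts without a poly(A) tail.

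**Figure D3:**
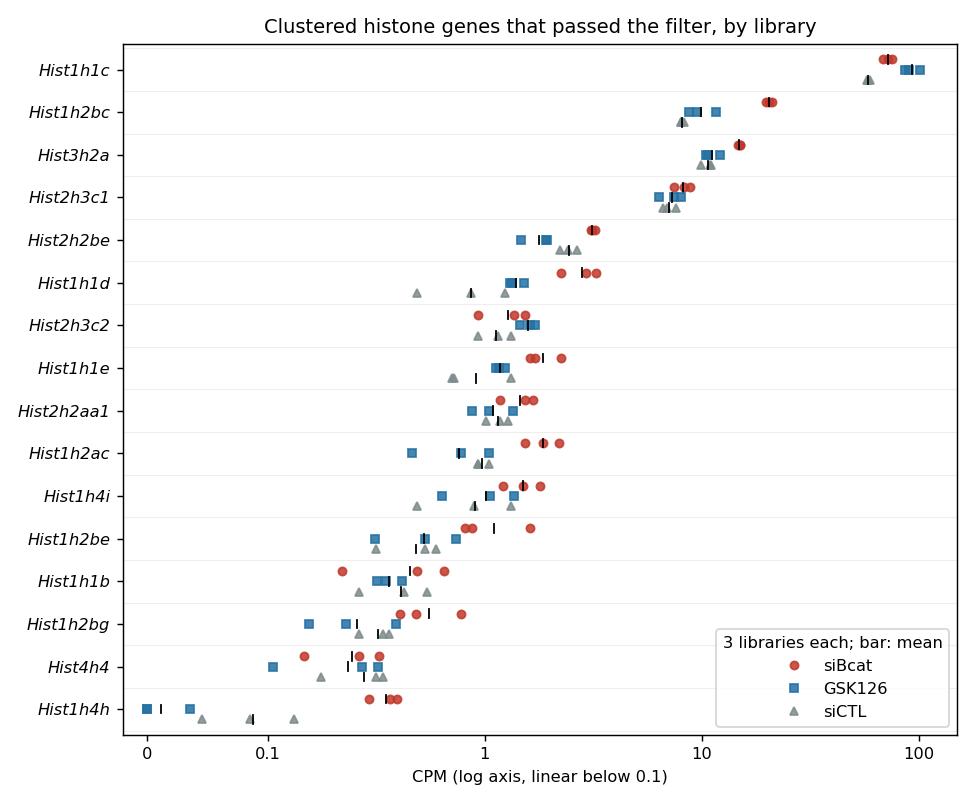
Each row is 1 of the 16 members that passed the filter, and each symbol is 1 library (3 per group, short bar at the group mean) on a CPM axis that is logarithmic above 0.1. Hist3h2a separates siBcat from the other groups, and Hist4h4 and Hist1h1b separate none. Hist1h1c, Hist1h2bc, Hist1h1d and Hist2h2be separate all 3 groups, as does Hist1h4h, which passed the filter through siBcat alone.

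β-catenin siRNA against the non-targeting siRNA: 3 H1, 2 H2A and 2 H2B genes were higher in siBcat cells. Against siCTL cells, the siBcat cells had 7 of the 15 members other than Hist1h4h at a higher level and 0 at a lower level at an adjusted p below 0.05 (edgeR quasi-likelihood test, Benjamini-Hochberg over all genes), where 35.2% of all 13240 genes tested passed, 17.7% higher and 17.5% lower. With Hist1h4h, whose passing built in its difference, the counts were 8 and 0 of 16. An unadjusted p below 0.05 was found for 9 of 16, and for 5895 of all 13240 genes tested. The median log2 fold change was 0.49 over the 15 members and 0.62 over the 16, against 0.0024 over all genes tested. The count of members past the threshold is a description of the 16, since passing the filter depends on the level reached.

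Among H1 genes, 3 of 4 tested rose in siBcat cells. Hist1h1d (chr13:23555032-23558008) was at 2.24, 2.914 and 3.239 CPM in siBcat libraries and at 0.8597, 0.4848 and 1.231 CPM in siCTL libraries. The groups did not overlap, and the log2 fold change was 1.70 ± 0.27 (SE; adjusted p = 0.000317). Hist1h1e (chr13:23620628-23622558) was at 1.607, 1.7 and 2.232 CPM in siBcat libraries and at 1.312, 0.7052 and 0.7214 CPM in siCTL libraries, again without overlap, with siCTL replicate 1 nearest to siBcat. Its log2 fold change was 1.02 ± 0.26 (SE; adjusted p = 0.0077). Hist1h1c (chr13:23738807-23740367) was at 75.04, 67.84 and 71.73 CPM in siBcat libraries and at 59.64, 57.92 and 57.5 CPM in siCTL libraries. All 3 siBcat libraries were higher, and the log2 fold change of 0.29 ± 0.06 (SE; adjusted p = 0.00346) was the smallest among the members that passed. Hist1h1b, an H1 gene whose entry is the coding sequence alone, was at 0.487, 0.6477 and 0.2188 CPM in siBcat libraries and at 0.543, 0.2645 and 0.4244 CPM in siCTL libraries. Those ranges overlapped (log2 fold change 0.14 ± 0.42, SE; adjusted p = 0.82).

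Hist1h2bc, which encodes H2B, had the smallest adjusted p of the family in this comparison. It lies at chr13:23684199-23692480 and was at 20.4, 19.79 and 21.05 CPM in siBcat libraries and at 7.964, 8.022 and 8.233 CPM in siCTL libraries. The range within each group was small beside the gap between them, and the fold was 2.53 (log2 1.34 ± 0.10, SE; adjusted p = 6.84e-07). Hist1h2be, another H2B gene, was at 0.8766, 0.8096 and 1.619 CPM in siBcat libraries and at 0.3167, 0.5289 and 0.5941 CPM in siCTL libraries. Its log2 fold change was 1.19 ± 0.39 (SE; adjusted p = 0.0291). The call was lost when siBcat replicate 3, siCTL replicate 1 or siCTL replicate 2 was left out, with adjusted p of 0.162, 0.109 and 0.0679. The other H2B genes tested, Hist1h2bg and Hist2h2be, had log2 fold changes of 0.77 and 0.36 and did not pass (adjusted p = 0.164 and 0.0736), although every siBcat library was above every siCTL library for both. Without siBcat replicate 1, Hist1h2bg had a log2 fold change of 0.44 (adjusted p = 0.494).

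Among H2A genes, Hist3h2a and Hist1h2ac rose in siBcat cells. Hist3h2a (chr11:58954685-58956674) was at 15, 14.65 and 14.88 CPM in siBcat libraries and at 9.909, 10.93 and 10.95 CPM in siCTL libraries. The gap between the groups was larger than the range within either, with a log2 fold change of 0.49 ± 0.08 (SE; adjusted p = 0.000643). Hist1h2ac (chr13:23681467-23683959) was at 1.851, 2.186 and 1.532 CPM in siBcat libraries and at 1.041, 0.9256 and 0.9336 CPM in siCTL libraries. Its log2 fold change was 0.94 ± 0.26 (SE; adjusted p = 0.014), and the call was lost without siBcat replicate 2 (adjusted p = 0.0678) or siCTL replicate 2 (adjusted p = 0.0513). Hist2h2aa1 had a log2 fold change of 0.34 and did not pass (adjusted p = 0.276).

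No H3 gene passed in this comparison. Hist2h3c1 was at 7.451, 8.298 and 8.797 CPM in siBcat libraries and at 6.878, 7.625 and 6.62 CPM in siCTL libraries, which overlapped (log2 fold change 0.22 ± 0.11, SE; adjusted p = 0.156). Hist2h3c2 had a log2 fold change of 0.18 (adjusted p = 0.573). Among H4 genes, Hist1h4i had 0.75 (adjusted p = 0.113) and Hist4h4 -0.16 (adjusted p = 0.828), and the libraries of both overlapped between groups. Without siCTL replicate 1, Hist1h4i had a log2 fold change of 1.12 (adjusted p = 0.042). Hist1h4h, named after its values were seen, had 12, 18 and 18 counts in siBcat libraries and 2, 6 and 4 counts in siCTL libraries. That is 24 and 6 fragments. Since its siBcat level alone admitted it to the test, these counts are a description and no p is given for it. With no filter on low counts, 42 of the 52 other members could be fitted, and Hist1h3d and Hist1h2ab were called higher in siBcat cells there (adjusted p = 0.0365 and 0.0377). Hist1h3d, an H3 gene, had 2, 18 and 12 counts in siBcat libraries and 0, 0 and 2 counts in siCTL libraries. Hist1h2ab, an H2A gene, had 8, 2 and 4 counts in siBcat libraries and 0, 0 and 0 counts in siCTL libraries. Both were named after their values were seen, and their counts are too few to give a fold. The share of all genes called in that fit is not given here, so these calls are a description only.

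By type, the summed levels of all members, those below the filter included, were 76.71 ± 3.17 CPM for H1, 18.8 ± 0.15 CPM for H2A, 25.67 ± 0.856 CPM for H2B, 10 ± 1.03 CPM for H3 and 2.934 ± 0.309 CPM for H4 in siBcat libraries. In siCTL libraries they were 60.65 ± 1.66 CPM for H1, 12.94 ± 0.557 CPM for H2A, 11.67 ± 0.35 CPM for H2B, 8.475 ± 0.248 CPM for H3 and 1.642 ± 0.38 CPM for H4 (SD, n = 3 each). The 52 members that did not pass the filter summed to 2.57 ± 0.56 CPM in siBcat, 1.43 ± 0.366 CPM in GSK126 and 1.39 ± 0.133 CPM in siCTL libraries. Of the 68 members, 42, 49 and 36 had counts in the siBcat libraries, 40, 33 and 31 in the GSK126 libraries and 35, 32 and 34 in the siCTL libraries.

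Ezh2 inhibition against the non-targeting siRNA: Hist1h1c alone passed. The siCTL libraries are the same as in the previous comparison, so the 2 sets of values are not independent. Hist1h1c was at 90.16, 86 and 100.5 CPM in GSK126 libraries and at 59.64, 57.92 and 57.5 CPM in siCTL libraries. All GSK126 libraries were above all siCTL libraries, with a fold of 1.58 (log2 0.66 ± 0.06, SE; adjusted p = 1.3e-05). It was the only 1 of 16 members past the threshold, in either direction, where 25.0% of all genes tested passed, 14.3% higher and 10.7% lower. At an unadjusted p below 0.05 there were 6 of 16 members, Hist1h4h included, beside 5025 of all 13240 genes tested. The median log2 fold change was 0.06 over the 15 members other than Hist1h4h and 0.05 over the 16, against 0.0063 over all genes, and without GSK126 replicate 3 it was -0.02 over the 18 members that passed the filter there.

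Several members lay close to the threshold in GSK126 cells, in both directions. Hist1h2bc was at 8.691, 9.463 and 11.6 CPM in GSK126 libraries and at 7.964, 8.022 and 8.233 CPM in siCTL libraries. The groups did not overlap, but the log2 fold change of 0.30 ± 0.10 did not pass (SE; adjusted p = 0.0506). Hist2h2be was at 1.908, 1.47 and 1.94 CPM in GSK126 libraries and at 2.217, 2.645 and 2.419 CPM in siCTL libraries. Every GSK126 library was lower, with a log2 fold change of -0.45 ± 0.15 that did not pass (SE; adjusted p = 0.0508). Without GSK126 replicate 3, the log2 fold change of Hist1h2bc was 0.16 (adjusted p = 0.178), and with the length trend removed it was 0.15 (adjusted p = 0.194). Without the same library Hist2h2be had -0.51 (adjusted p = 0.0445). DESeq2 put Hist1h2bc at an adjusted p of 0.0416 and Hist2h2be at 0.0436. Over all 21 alternatives run, Hist1h2bc did not pass in 17 and Hist2h2be did not pass in 16.

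The other H1 genes did not pass with GSK126. Hist1h1d was at 1.307, 1.332 and 1.513 CPM in GSK126 libraries and at 0.8597, 0.4848 and 1.231 CPM in siCTL libraries, without overlap (log2 fold change 0.68 ± 0.28, SE; adjusted p = 0.0915). Its value rested on the siCTL libraries: the log2 fold change was 0.39 without siCTL replicate 2 (adjusted p = 0.297) and 1.04 without siCTL replicate 3 (adjusted p = 0.0265), and it did not pass in 20 of the 21 alternatives. Hist1h1e had a log2 fold change of 0.37 (adjusted p = 0.33) and Hist1h1b -0.20 (adjusted p = 0.767). Hist3h2a was at 10.7, 10.38 and 12.11 CPM in GSK126 libraries and at 9.909, 10.93 and 10.95 CPM in siCTL libraries, which overlapped (log2 fold change 0.06 ± 0.08, SE; adjusted p = 0.621), and its sign turned without GSK126 replicate 3. Hist1h4h had 2, 0 and 0 counts in GSK126 libraries against 2, 6 and 4 counts in siCTL libraries. That is 1 fragment against 6.

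In all, 6 of 16 members had GSK126 and siCTL libraries that did not overlap, 4 higher and 2 lower in GSK126, where 42.1% of all genes tested did not overlap, 21.9% higher and 20.2% lower. Between siBcat and siCTL, 10 of 16 did not overlap, all higher in siBcat, where 55.2% of all genes did not overlap, 28.0% higher and 27.2% lower. Between siBcat and GSK126, 10 of 16 did not overlap, 9 higher and 1 lower in siBcat, where 52.5% of all genes did not overlap, 25.3% higher and 27.2% lower. These counts include Hist1h4h, and without it they are 5, 9 and 9 of 15 for GSK126 against siCTL, siBcat against siCTL and siBcat against GSK126. By type, summed levels in GSK126 libraries were 95.19 ± 7.51 CPM for H1, 13.27 ± 1.21 CPM for H2A, 12.79 ± 1.3 CPM for H2B, 9.067 ± 1.03 CPM for H3 and 1.749 ± 0.267 CPM for H4 (SD, n = 3). Beside the siCTL sums given above, the H1 sum was higher by more than the spread, and that sum is mostly Hist1h1c.

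**Figure D4:**
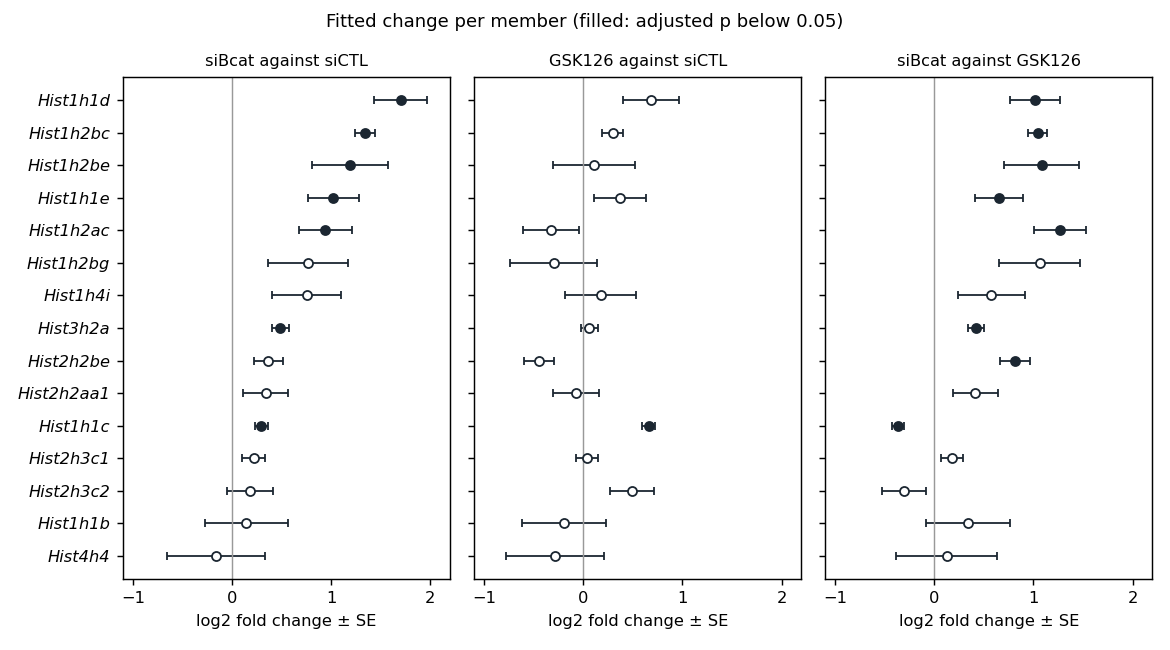
Points give the fitted log2 fold change of 15 members with its standard error in each comparison, filled where the adjusted p was below 0.05; Hist1h4h, which passed the filter through siBcat alone, is not drawn. Filled points lie to the right for 7 members in siBcat against siCTL, for Hist1h1c alone in GSK126 against siCTL, and on both sides in siBcat against GSK126, where Hist1h1c is the filled point on the left.

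β-catenin siRNA against Ezh2 inhibition: Hist1h1c was lower and several other members were higher in siBcat cells. Of the 15 members other than Hist1h4h, 7 were higher and 1 was lower in siBcat than in GSK126 cells, where 41.2% of all genes tested passed, 19.3% higher and 21.9% lower. With Hist1h4h the counts were 8 and 1 of 16. The median log2 fold change was 0.57 over the 15 members, 0.61 over the 16 and -0.01 over all genes (-0.0119). Hist1h1c was the member called lower in siBcat cells, with a log2 fold change of -0.37 ± 0.06 (SE; adjusted p = 0.000554). Its 3 siBcat libraries, at 67.84 to 75.04 CPM, all lay below its 3 GSK126 libraries, at 86 to 100.5 CPM.

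Besides Hist1h4h, the members that were higher in siBcat than in GSK126 cells were the H2A genes Hist1h2ac and Hist3h2a, the H2B genes Hist1h2bc, Hist1h2be and Hist2h2be, and the H1 genes Hist1h1d and Hist1h1e. Hist1h2bc was at 19.79 to 21.05 CPM in siBcat and 8.691 to 11.6 CPM in GSK126 libraries (log2 fold change 1.04 ± 0.10, SE; adjusted p = 3.4e-06). Hist1h2ac was at 1.532 to 2.186 CPM in siBcat and 0.4594 to 1.048 CPM in GSK126 libraries (log2 fold change 1.27 ± 0.27, SE; adjusted p = 0.00207). Hist2h2be, which passed in neither comparison with siCTL, was at 3.068, 3.198 and 3.107 CPM in siBcat libraries and at 1.908, 1.47 and 1.94 CPM in GSK126 libraries (log2 fold change 0.81 ± 0.15, SE; adjusted p = 0.000902). The siCTL libraries of Hist2h2be lay between those groups, at 2.217 to 2.645 CPM. Hist3h2a had a log2 fold change of 0.42 ± 0.08 (SE; adjusted p = 0.00131) and Hist1h1d 1.02 ± 0.25 (SE; adjusted p = 0.00545), each without overlap between the groups.

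Hist1h2be and Hist1h1e passed narrowly in the direct test. Their log2 fold changes were 1.08 (adjusted p = 0.0357) and 0.65 (adjusted p = 0.0494), and their exons overlap. Hist1h2be lost its call with a replicate block and when siCTL replicate 2, GSK126 replicate 1, GSK126 replicate 3 or siBcat replicate 3 was left out, the last giving a log2 fold change of 0.70 (adjusted p = 0.198). Hist1h1e lost its call in 10 of the alternatives run, among them each that left out a GSK126 or a siBcat library, with an adjusted p of at most 0.185. Hist1h4h had 24 fragments in siBcat and 1 in GSK126 libraries, which is given as a description for the reason above.

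The promoters of the H1 genes that rose in siBcat cells were compared, since only Hist1h1c among them passed with GSK126. That is a difference in passing the threshold and not in the size of every estimate. The log2 fold change with GSK126 was 0.66 ± 0.06 for Hist1h1c, 0.68 ± 0.28 for Hist1h1d and 0.37 ± 0.26 for Hist1h1e (SE). RefSeq windows (GRCm38.p6) hold 250 bases before and 50 bases after the annotated start, and capitals mark motifs on either strand. The motifs were a TATA box, spelled TATAAA and in a second form TATATA, the CCAAT box, and the H1 box, spelled AAACACA.
Hist1h1c: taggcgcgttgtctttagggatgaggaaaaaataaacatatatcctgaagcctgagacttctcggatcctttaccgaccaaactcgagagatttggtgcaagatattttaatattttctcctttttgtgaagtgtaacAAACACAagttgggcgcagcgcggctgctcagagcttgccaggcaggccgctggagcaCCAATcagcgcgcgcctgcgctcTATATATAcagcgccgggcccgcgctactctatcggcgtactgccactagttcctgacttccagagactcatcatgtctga
Hist1h1d: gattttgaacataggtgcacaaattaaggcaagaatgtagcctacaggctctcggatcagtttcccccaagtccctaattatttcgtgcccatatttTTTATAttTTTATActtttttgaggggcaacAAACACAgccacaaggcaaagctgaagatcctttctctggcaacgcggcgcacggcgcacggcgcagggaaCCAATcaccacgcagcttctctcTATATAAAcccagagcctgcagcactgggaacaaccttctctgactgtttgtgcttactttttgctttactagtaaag
Hist1h1e: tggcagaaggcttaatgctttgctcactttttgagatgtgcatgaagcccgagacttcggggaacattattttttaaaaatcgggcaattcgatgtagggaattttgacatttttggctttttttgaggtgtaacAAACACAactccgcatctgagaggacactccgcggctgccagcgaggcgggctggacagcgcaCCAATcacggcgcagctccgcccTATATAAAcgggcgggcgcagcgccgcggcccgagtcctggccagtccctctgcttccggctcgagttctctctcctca
The windows are chr13:23738557-23738856 on the plus strand for Hist1h1c, chr13:23554782-23555081 on the plus strand for Hist1h1d and chr13:23622509-23622808 on the minus strand for Hist1h1e.

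All 3 H1 windows held an H1 box, a CCAAT box and a TATA box in that order, and Hist1h1d held further TATA matches upstream of its H1 box. The H1 box, an element known from H1 promoters, began 112 bases before the start in Hist1h1c, 122 in Hist1h1d and 115 in Hist1h1e. The CCAAT box nearest the start began 54, 51 and 52 bases before it, and a TATA box 31, 28 and 29 bases before it, in the same gene order. Hist1h1b, which did not change past the threshold, held an H1 box at 117, a CCAAT box at 53 and a TATA box at 30 bases before its start. The members had 62 matched windows, with more than a single window for Hist1h2be and none for Hist1h2bc. The shares that follow are therefore of windows and not of members. Of the 62, 67.742% held a TATA box, 85.484% a CCAAT box, 14.516% the H1 box and 22.581% the octamer ATTTGCAT of H2B promoters, on either strand. Over all 32851 windows the shares were 17.077%, 37.408%, 7.184% and 1.735%. The matches of the different TATA forms overlap each other, and a match is a description of the letters only.

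Most S phase genes on the list were higher in each treatment than in siCTL cells. Of 21 S phase and replication genes tested, 14 rose and 1 fell in siBcat cells against siCTL cells, with a median log2 fold change of 0.24. In GSK126 against siCTL cells 20 were higher and 0 lower, with a median of 0.53, the exception being Cdk2 (adjusted p = 0.0602). In siBcat against GSK126 cells 0 were higher and 15 lower, with a median of -0.37. Over all genes tested, 17.7% were higher in siBcat and 14.3% in GSK126 than in siCTL cells, and 21.9% were lower in siBcat than in GSK126 cells. Rrm2, the regulatory subunit of ribonucleotide reductase, averaged 155.8 CPM in siBcat, 206.1 CPM in GSK126 and 95.81 CPM in siCTL cells. Hist1h1c had the same order of groups, and Hist1h2bc, Hist3h2a, Hist1h2ac and Hist1h1d did not, each being highest in siBcat libraries.

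Replacement histones, which are made from genes outside the clusters, moved in a mixed way. Of 11 tested, 3 rose and 4 fell in siBcat cells against siCTL cells, 5 were higher and 0 lower in GSK126 than in siCTL cells, and 2 higher and 7 lower in siBcat than in GSK126 cells. Over all genes tested, 35.2%, 25.0% and 41.2% passed in those comparisons, in either direction. H3f3a, which encodes H3.3, averaged 136.1 CPM in siBcat and 171.6 CPM in siCTL cells (log2 fold change -0.33; adjusted p = 0.000518). Cenpa, the centromeric H3, averaged 26.87 CPM in GSK126 and 15.67 CPM in siCTL cells (log2 fold change 0.78; adjusted p = 1.54e-05). H2afj, an H2A variant, averaged 50.6 CPM in siBcat, 27.36 CPM in GSK126 and 31.56 CPM in siCTL cells, and it was higher in siBcat than in siCTL cells (log2 fold change 0.68; adjusted p = 0.0209) and than in GSK126 cells (log2 fold change 0.89; adjusted p = 0.00486). H1f0 averaged 189.8 CPM in siBcat and 158.7 CPM in siCTL cells (log2 fold change 0.26; adjusted p = 0.00203).

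Few genes on the list for histone 3′ end formation and histone gene transcription passed. Of 18 such genes tested, 2 rose and 0 fell in siBcat cells against siCTL cells, 0 were higher and 1 lower in GSK126 than in siCTL cells, and 4 higher and 0 lower in siBcat than in GSK126 cells. Over all genes tested, 35.2%, 25.0% and 41.2% passed in those comparisons. At an unadjusted p below 0.05 there were 2, 7 and 4 of the 18, beside 5895, 5025 and 6501 of all 13240 genes tested. Slbp, which binds the stem-loop, averaged 33.16 ± 1.74 CPM in siBcat, 34 ± 4.88 CPM in GSK126 and 29.59 ± 1.34 CPM in siCTL cells (SD, n = 3 each) and passed in none of these tests (adjusted p = 0.178, 0.12 and 0.776 for siBcat against siCTL, GSK126 against siCTL and siBcat against GSK126). Npat, the coactivator of clustered histone genes, was higher in siBcat than in GSK126 cells (36.68 and 29.87 CPM; log2 fold change 0.30; adjusted p = 0.0234). Of 18 histone chaperones and importers, 4 rose and 4 fell in siBcat cells against siCTL cells, 5 were higher and 2 lower in GSK126 than in siCTL cells, and 2 higher and 8 lower in siBcat than in GSK126 cells, beside the same shares of all genes. Asf1b and Chaf1b, which hand new H3 and H4 to replicating DNA, averaged 16.96 CPM (Asf1b) and 21.48 CPM (Chaf1b) with GSK126, against 9.885 CPM (Asf1b) and 13.01 CPM (Chaf1b) in siCTL cells (log2 fold changes 0.78 and 0.72; adjusted p = 6.08e-05 and 1.11e-05).

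**Figure D5:**
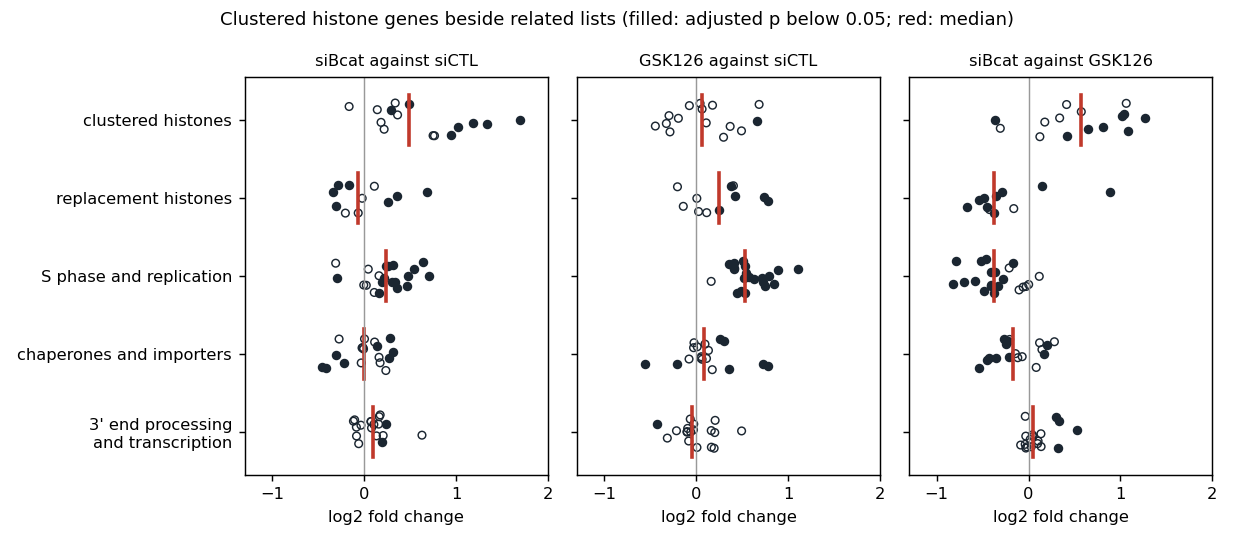
Each point is the fitted log2 fold change of a gene that passed the filter, filled where the adjusted p was below 0.05, with a red bar at the median of its list; Hist1h4h is not drawn. The medians of the clustered histones are 0.49, 0.06 and 0.57, and those of the S phase list 0.24, 0.53 and -0.37, in the comparisons siBcat against siCTL, GSK126 against siCTL and siBcat against GSK126.

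RNAs that have no poly(A) tail at all were looked at beside the siBcat result. Of 20 listed, 14 are in the table and 3 passed the filter. Rmrp, the RNA of the mitochondrial RNA-processing ribonuclease, was higher in siBcat than in siCTL cells (1.338 ± 0.431 and 0.6041 ± 0.2 CPM, SD, n = 3 each; log2 fold change 1.15; adjusted p = 0.014), and the other 2 did not pass. All 3 had a positive log2 fold change in that comparison, with a median of 0.67. Against GSK126 cells, 1 of the 3 was called higher in siBcat cells. Over all genes tested, 17.7% and 19.3% were called higher in those 2 comparisons. The 14 summed to 3.652 to 5.06 CPM in siBcat, 2.685 to 3.376 CPM in GSK126 and 1.485 to 3.484 CPM in siCTL libraries, with 7, 3 and 5 of the 14 at 0 throughout the group. The part that carry-over of RNA without a poly(A) tail has in the siBcat values was not tested. The 9 macrophage and haematopoietic markers in the table summed to 3.312 to 3.643 CPM in siBcat, 2.756 to 3.376 CPM in GSK126 and 2.733 to 3.013 CPM in siCTL libraries, with 2, 4 and 5 of them at 0 throughout the group. Of the 4 tested, 2 rose and 1 fell in siBcat cells against siCTL cells. In GSK126 against siCTL cells 0 passed, and in siBcat against GSK126 cells 1 was higher and 0 lower. Over all genes tested, 35.2%, 25.0% and 41.2% passed in those comparisons, in either direction. The 6 endothelial markers summed to 1.66 to 2.232, 1.474 to 2.261 and 1.448 to 2.028 CPM in siBcat, GSK126 and siCTL libraries. These sums hide opposite changes. Of the 2 tested, 1 was higher (Kdr) and 1 lower (Vwf) in siBcat than in siCTL cells, and likewise against GSK126 cells. Kdr had 42, 42 and 54 counts in siBcat and 14, 22 and 12 in siCTL libraries. Vwf had 24, 26 and 40 counts in siBcat and 40, 64 and 66 in siCTL libraries. The part that these marker genes have in the histone values was not tested. In bulk RNA, a change in the share of cells that express a gene and a change in RNA per cell cannot be told apart.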

How the data were processed

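The authors deposited a table of whole-number read counts per gene with RPKM values beside them. Reads were handled with TopHat2 2.0.6, HTSeq and bcl2fastq, and mm10 was the build, per the submitters' processing notes. How shared reads, strand and annotation were set is not given in the sources used here. In the table, 6 further columns match no sample here and were not used. The deposited RPKM values served only to check depth: the genes of the table hold 89.85 to 90.69% of the library totals implied by RPKM.

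Counts of 9 libraries, with totals of 42324200 to 55898774, were fitted together with edgeR 4.0.16 in R 4.3.3 (filterByExpr with a minimum count of 10 and total of 15, TMM scaling, robust quasi-likelihood test, 13240 genes, Benjamini-Hochberg adjustment over all of them, threshold 0.05). CPM use TMM-scaled totals, and shares of a library use unscaled totals. SE is the fold change divided by the root of F. The common biological coefficient of variation was 8.12%. Limits for zeros cover counting error only. Within every group, replicate libraries differed by more than counting noise, also with 2 counts per fragment, so each was counted once. The script was tested on simulated counts.

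Members were named by a rule: the 8 with the highest CPM per kb, up to 8 called per comparison whose mean reached 0.5 CPM in a group, and the H1 genes tested; the rest of the 16 are given more briefly. The members, lists and tests were chosen with earlier results of these data known. Sequences come from GENCODE M21 transcripts (GRCm38) and RefSeq promoter windows (GRCm38.p6). Alternatives covered scaling, filters, DESeq2 1.42.0, limma 3.58.1, a replicate block, a correction for gene length and leaving out each library.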

Additional observations from a re-analysis of the deposited data

How the results depend on the processing

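The count of members past the threshold in siBcat against siCTL stayed between 6 and 9 in every alternative run, and in siBcat against GSK126 between 7 and 11. In GSK126 against siCTL the count was 1; it was 2 with DESeq2 size factors, with library size only, with limma-voom and with the length trend removed, 3 with DESeq2 and with a filter of 1 CPM in 3 libraries, and 1 to 3 when a library was left out. Hist1h1c passed in all of these. The median log2 fold change of the tested members in siBcat against siCTL was 0.81 with no filter, 0.48 with 1 CPM in 3 libraries and 0.484 with halved counts, and 0.6052 to 0.8893 without 1 library; these settings test other sets of members. In GSK126 against siCTL it was 0.18 with 1 CPM in 3 libraries, -0.047 with the length trend removed, and -0.0204 to 0.1701 without 1 library. In siBcat against GSK126 it was 0.54 with library size only, 0.73 with no filter, 0.68 with the length trend removed, and 0.497 to 0.806 without 1 library. Members with counts numbered 24 when 10 counts in a library were required and 18 when all 9 libraries were. The siBcat share was 0.0134% of the TMM-scaled total.

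No value that turned sign had passed the threshold. With the length trend removed, GSK126 against siCTL gave -0.0294 for Hist3h2a and -0.0646 for Hist2h3c1. Without 1 library, the ranges in siBcat against siCTL were -0.2332 to 0.474 for Hist1h1b and -0.4249 to 0.0702 for Hist4h4. In GSK126 against siCTL they were -0.4419 to 0.046 for Hist1h1b, -0.5754 to 0.0818 for Hist4h4, -0.1334 to 0.5435 for Hist1h4i, -0.1909 to 0.3735 for Hist1h2be, -0.2671 to 0.0473 for Hist2h2aa1, -0.0441 to 0.1269 for Hist2h3c1 and -0.009 to 0.0997 for Hist3h2a. In siBcat against GSK126 they were -0.0333 to 0.6739 for Hist1h1b and -0.2471 to 0.4103 for Hist4h4. Over 983 values of single members, 922 kept direction and side of the threshold, 24 lost and 18 gained a call, and 19 turned sign; the cause was not tested.

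Same-numbered libraries did not deviate together (correlations -0.0306 to 0.0688 over 9 pairs). These values give no sign that the numbers pair the libraries, but a weak pairing could be missed. With a replicate block, 8 members passed in siBcat against siCTL, 1 in GSK126 against siCTL and 8 in siBcat against GSK126, where Hist1h1e and Hist1h2be lost their calls and Hist1h2bg gained one.

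Depth limits the 52 members below the filter: with no filter 42 of them could be fitted, of which 2 were called higher in siBcat than in siCTL cells and 0 in the other comparisons. Those 2, Hist1h3d and Hist1h2ab, rest on few counts, and the share of all genes called without a filter is not given here. Sequence shared with other annotated genes and table entries of unequal length limit comparisons between genes.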
